A study of Mus musculus with 30 samples.

Results

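The 10 genes described here are *Ptpn11*, *Gab2*, *Grb2*, *Sos1*, *Nf1*, *Dusp6*, *Spry1*, *Spry2*, *Spred1* and *Etv5*, which encode the phosphatase Shp2, adaptors and regulators of Ras that act with it, and genes that ERK signaling switches on. They were taken by symbol from 2 count tables, where all 10 were among the 13353 genes listed for bone marrow (BM) and all 10 among the 17059 genes listed for F4/80+ cells sorted from visceral fat (adipose tissue macrophages, ATMs). Every mouse was irradiated with 700 and then 400 cGy. Each received marrow from Shp2E76K/+;LysM-Cre+ mice (CD45.2) mixed 1:1 with marrow from wild-type Boy/J mice (CD45.1). LysM-Cre is active mainly in myeloid cells, and which donor cells carried the active Shp2 was not measured here. The labels list C57BL/6J as the genotype of all 30 samples without naming the donor of any. For the ATM control samples a figure legend of the study instead describes wild-type donor cells in Ob/Ob mice, so the donor and recipient of WT ATMs are not settled. The 5 groups of each tissue were, by the labels, lean wild-type recipients (WT) and leptin-deficient Ob/Ob mice treated with vehicle (Vehicle), with beinaglutide, a GLP-1R agonist, at 3 mg/kg (GLP1R), with an anti–IL-17A antibody at 200 µg per mouse 3 times a week (IL17A), or with both (Combo). In the Ob/Ob groups treatment began 8 weeks after transplantation and lasted 30 days. No dosing is stated for WT. The labels give an age of 12 to 14 weeks and name both sexes. With those times added, the recipient age in the study's methods exceeds this, so the age at sampling is not settled. Each group had 3 libraries per tissue.

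Shp2 is a tyrosine phosphatase that binds phosphorylated adaptors such as Gab2 and, together with Grb2 and the exchange factor Sos1, allows receptors to load Ras with GTP. The E76K change holds Shp2 open and active, and such changes drive juvenile myelomonocytic leukemia. Neurofibromin, the *Nf1* product, returns Ras to its GDP form, and Spred1 brings it to the membrane. *Dusp6*, *Spry1*, *Spry2* and *Etv5* are classic transcriptional targets of ERK, and all but *Etv5*, a transcription factor, encode inhibitors that feed back on the pathway.

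Counts of reads per gene were scaled for library size (normalized counts), and groups were compared with edgeR's quasi-likelihood test in 1 fit per tissue. A gene is said to rise or fall at a false discovery rate (adjusted p) below 0.05, and is said to be called where its log2 fold change was also beyond 1. BM libraries held 31086184 to 39925495 counts and ATM libraries 24876074 to 45300263. Replicates varied far less in BM (biological coefficient of variation 3.51%) than in ATMs (32.5%), and the smallest changes that passed were smaller in BM. The BM value is low for separate mice. The labels name 3 mice per group as biological replicates without saying which mouse gave which library, so the adjusted p-values of BM measure the spread between these libraries, which may be technical.

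The groups also differed in the cells they held. In ATMs, *Adgre1*, which encodes the F4/80 antigen used for the sort, was at 1002 to 1738 normalized counts in the Vehicle libraries against 6387 to 29670 in the 4 other groups, and the macrophage receptor gene *Csf1r* was at 1274 to 1804 against 17620 to 34700. Both macrophage transcripts were thus low in the Vehicle libraries, against their label. Other markers were mixed. Of 13 monocyte and macrophage markers 5 rose (24.3% of all genes) and 8 fell (32.6%) in Vehicle against WT in ATMs (median log2 fold change -0.76). *Cd68* was higher, at 16760 to 18330 in Vehicle and 8651 to 8719 in WT. The 13 summed to 128900 to 138700 in Vehicle and 161300 to 170100 in WT. The summed counts of 11 neutrophil markers found in the ATM table (of 12 listed) were 714100 to 755800 in Vehicle and 424100 to 436300 in Combo, against 6117 to 13720 elsewhere. In WT ATMs 4 epididymal markers (of 7 listed) summed to 105500 to 110800, and 7 pancreatic markers (of 9) summed to 31630 to 32280 in Combo ATMs. Erythroid markers (6 found of 7 listed) summed in BM to 88170 to 89670 in GLP1R and 30840 to 31650 in Vehicle. The 3 other groups of BM had 40320 to 61670. In ATMs these markers summed to 224100 to 226700 in Vehicle against 40170 to 186700 elsewhere. In BM, 10 B cell markers summed to 50340 to 51120 in WT against 4406 to 16420 in the other groups, and 13 monocyte and macrophage markers to 494400 to 503600 against 149200 to 270000. Most of that second sum was *Lyz2*, which encodes lysozyme, at 444200 to 453100 in WT and 119900 to 121600 in Vehicle, and of the 13 markers 7 rose and 5 fell in Vehicle against WT (median log2 fold change 0.24). *Xist*, expressed from the inactive X of female cells, was high in Vehicle and Combo in both tissues (6339 to 6712 and 3528 to 3657 in BM, 998 to 1533 and 1041 to 1264 in ATMs). It stayed between 0 and 113 in the other groups. In BM 4 Y-linked genes summed to 2256 to 2328 in Vehicle and 386.8 to 445.5 in Combo, against 4720 to 5799 elsewhere. In ATMs they summed to 731.9 to 959.9 in Vehicle and 501.1 to 731.7 in Combo, against 5271 to 8349. The Vehicle and Combo libraries of both tissues thus held *Xist* beside Y-linked transcripts. The sex make-up of the cells moved with the groups, which the labels describe as matched for sex. In such bulk samples fewer cells of a type and less RNA per cell cannot be told apart, and the part of these differences in any result below was not tested. All ATM comparisons with Vehicle rest on its 3 libraries. For that reason each treated group was also set against WT in a fit without them, a comparison added after the values were seen.

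Set against exon length, the 10 genes spanned more than an order of magnitude. In BM, *Grb2* had the highest median over the 15 libraries, 87.4 counts per kilobase of exon scaled by depth, as in RPKM (range 76.5 to 102.7), followed by *Dusp6* at 25.0 (15.3 to 33.7) and *Ptpn11* at 18.3 (13.0 to 20.9). *Nf1* at 1.34 and *Spry1* at 0.693 were lowest. In ATMs, *Grb2* (45.8, range 27.0 to 60.3) and *Dusp6* (45.5, range 38.3 to 98.1) had the highest medians and their ranges overlapped. *Spry1* came next there, at a median of 14.2, and *Ptpn11* at 9.10 was below *Spred1*, *Gab2* and *Etv5*. The levels of the 2 tissues were scaled in separate tables and are set side by side without a test.

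**Figure D1:**
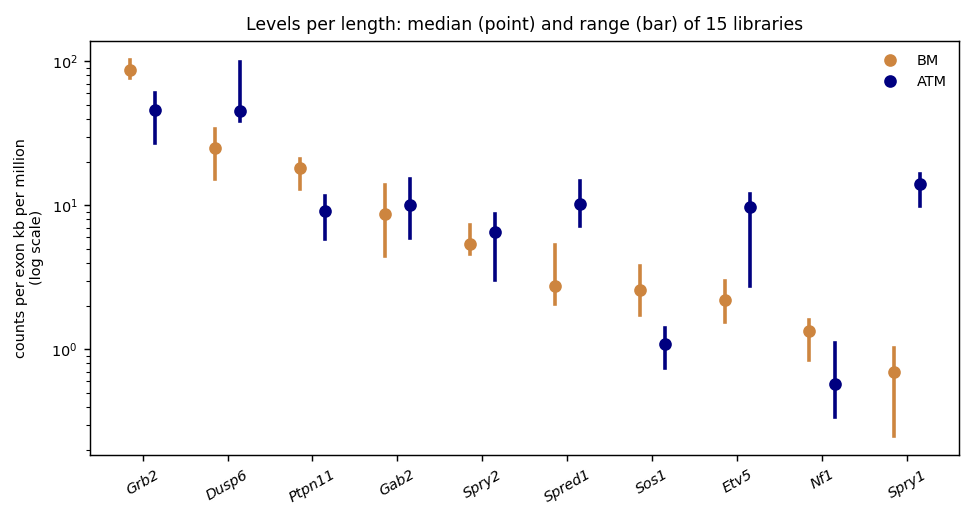
Levels of the 10 genes in counts per kilobase of exon scaled by depth, on a log axis, with the median (point) and range (bar) of the 15 libraries of BM and of ATMs. *Grb2* has the highest median in both tissues, at 87.4 in BM and 45.8 in ATMs, and *Spry1* has a median of 0.693 in BM and 14.2 in ATMs.

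Upstream sequence is shown for *Ptpn11*, the gene altered in the donor cells, for *Sos1*, which rose in Vehicle over WT in BM without passing in ATMs, and for *Dusp6*, an ERK-induced gene whose Vehicle to WT differences had opposite signs in the 2 tissues. Each sequence is the 250 bases before a transcription start in RefSeq on GRCm38.p6, written in the direction of the gene, with matches to 4 motifs in capitals. The motifs, read on both strands, were the ETS motif (CCGGAA, or TTCCGG on the other strand), the AP-1 motif (TGACTCA or TGAGTCA), the cyclic AMP response element (TGACGTCA, its own reverse complement) and the GC box (GGGCGG or CCGCCC). Of 32851 such windows in the genome, 12% held the ETS motif, 4.46% AP-1, 1.55% the cyclic AMP element and 32.7% the GC box. RefSeq windows were found for 9 of the 10 genes, all but *Gab2*.
*Ptpn11*, chr5:121191398-121191647, minus strand: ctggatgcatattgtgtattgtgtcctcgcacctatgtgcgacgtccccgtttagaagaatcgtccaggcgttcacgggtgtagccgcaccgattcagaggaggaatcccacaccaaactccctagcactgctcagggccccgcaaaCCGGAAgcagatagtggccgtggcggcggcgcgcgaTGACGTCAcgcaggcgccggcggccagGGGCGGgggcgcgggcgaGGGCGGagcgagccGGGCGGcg
*Dusp6*, chr10:99262981-99263230, plus strand: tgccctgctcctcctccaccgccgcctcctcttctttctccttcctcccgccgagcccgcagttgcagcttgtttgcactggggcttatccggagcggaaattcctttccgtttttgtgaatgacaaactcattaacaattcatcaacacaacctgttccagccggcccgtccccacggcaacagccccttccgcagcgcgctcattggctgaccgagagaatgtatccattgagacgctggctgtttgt
*Sos1*, chr17:80480454-80480703, minus strand: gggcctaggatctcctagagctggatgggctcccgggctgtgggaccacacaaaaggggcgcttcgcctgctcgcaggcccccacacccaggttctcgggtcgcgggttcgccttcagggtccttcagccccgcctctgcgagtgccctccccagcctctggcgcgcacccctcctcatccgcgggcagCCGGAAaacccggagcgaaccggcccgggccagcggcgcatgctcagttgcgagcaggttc
The *Ptpn11* window held 1 ETS motif 103 to 98 bases before the start, 1 cyclic AMP element 67 to 60 bases before it and 3 GC boxes, none of which overlap. The *Sos1* window held 1 ETS motif 61 to 56 bases before the start, and the *Dusp6* window none of the 4 motifs. Among the other genes, *Nf1* held 1 ETS motif, *Spry1* 1 GC box, *Spred1* 2 and *Etv5* 3, while the windows of *Grb2* and *Spry2* held none. A match is a description of these letters and does not show that a factor binds.

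*Ptpn11* (chromosome 5, 121130533 to 121191397, minus strand, GRCm38) rose in Vehicle over WT in marrow and was higher still in Combo, while in ATMs no comparison reached the threshold. In BM it was at 3395, 3454 and 3528 in WT, 4509.9, 4426 and 4719 in Vehicle, 4836, 4867 and 4762 in GLP1R, 4719, 4822 and 4799.9 in IL17A and 5418, 5413 and 5453 in Combo. WT was lowest and Combo highest, without overlap with any other group, and the libraries of Vehicle and IL17A overlapped, as did those of IL17A and GLP1R. Vehicle exceeded WT by 1.32-fold (log2 fold change 0.40, standard error 0.0299, adjusted p = 3.34e-15) and Combo exceeded Vehicle by 1.19-fold (log2 fold change 0.25, standard error 0.0293, adjusted p = 4.28e-10). Combo exceeded WT by 1.57-fold (log2 fold change 0.65, standard error 0.0296, adjusted p = 2.43e-22). GLP1R (log2 fold change 0.08, adjusted p = 0.0105) and IL17A (0.07, adjusted p = 0.0284) were above Vehicle by 1.06-fold and 1.05-fold. Both of these small rises were lost when Vehicle replicate 2 was left out (adjusted p = 0.0811 and 0.162), and that of IL17A also without Vehicle replicate 1 (0.0802), IL17A replicate 2 (0.0823) or IL17A replicate 3 (0.0706). These reads do not tell the mutant allele from the normal one.

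In ATMs, *Ptpn11* was at 2575, 2580.4 and 1703 in WT, 2289.6, 2263 and 1443 in Vehicle, 2543, 2906 and 2474 in GLP1R, 1871, 2017 and 2516 in IL17A and 2201, 2096 and 2010.2 in Combo. WT and Vehicle each held 1 library well below the other two, and neighboring groups in the order of means overlapped throughout, although all GLP1R libraries lay above those of Vehicle. The Vehicle to WT difference was -0.19 on the log2 scale (95% interval -0.58 to 0.19, adjusted p = 0.378). That of Combo to Vehicle was 0.07 (95% interval -0.31 to 0.46, adjusted p = 0.797). The largest was that of GLP1R to Vehicle, 0.40 (adjusted p = 0.0726), and it passed the test without WT replicate 3 (adjusted p = 0.0415) or without Vehicle replicate 1 (0.0440).

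**Figure D2:**
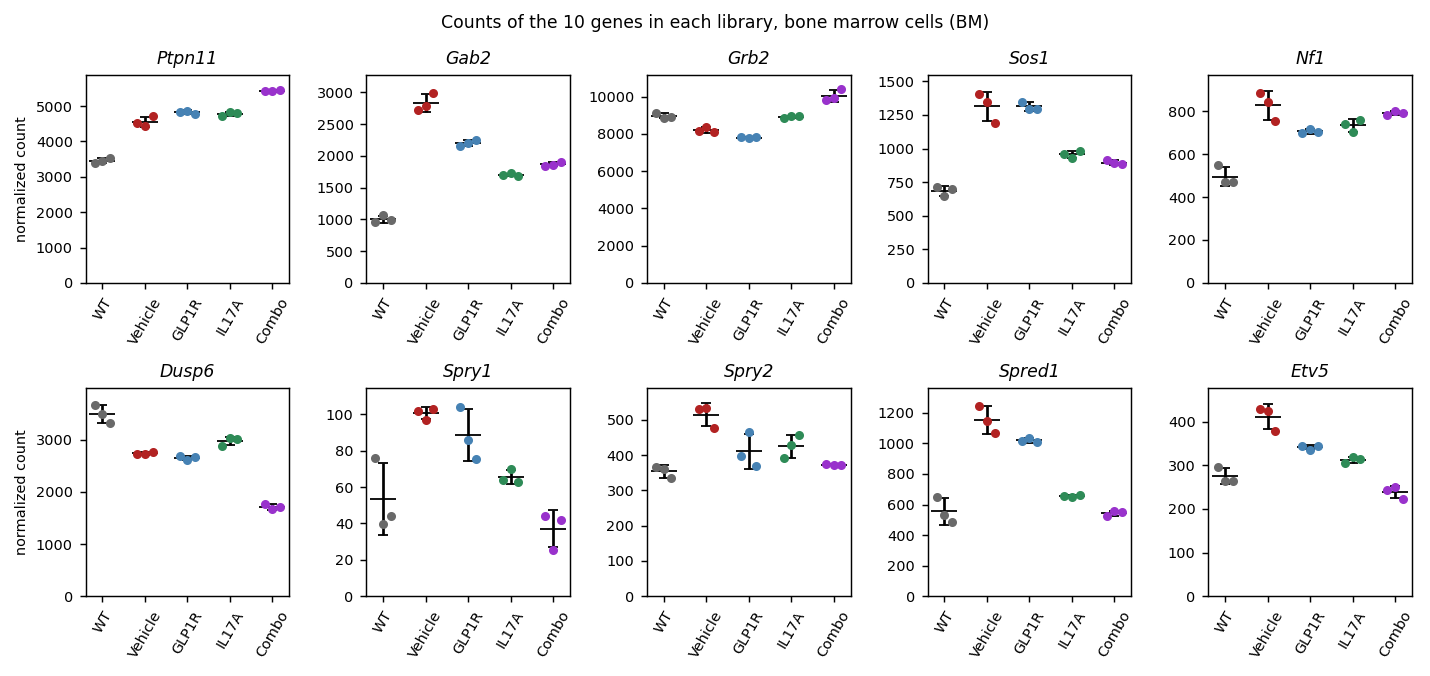
Normalized counts of the 10 genes in each BM library (points), with the mean and SD of the 3 libraries of a group (black), for WT, Vehicle, GLP1R, IL17A and Combo; each axis starts at 0. *Gab2*, *Sos1*, *Spry2*, *Spred1* and *Etv5* are above WT in all 3 Vehicle libraries, and *Dusp6* is lowest in the 3 Combo libraries, at 1665 to 1772.

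The adaptor gene *Gab2* (chromosome 7, 97081586 to 97308946, plus strand) showed the largest rise of the 10 in Vehicle over WT in marrow and was lower than Vehicle in all 3 treated groups of BM. It was at 954, 1066 and 989 in WT, 2724, 2786 and 2991 in Vehicle, 2158, 2199 and 2242 in GLP1R, 1694, 1722 and 1685 in IL17A and 1839, 1862 and 1910.2 in Combo. No groups overlapped, and the order ran from WT through IL17A, Combo and GLP1R to Vehicle. Vehicle exceeded WT by 2.83-fold (log2 fold change 1.50, standard error 0.0449, adjusted p = 1.13e-28). Against Vehicle the log2 fold change was -0.36 in GLP1R (adjusted p = 3.32e-10), -0.74 in IL17A (adjusted p = 6.96e-19) and -0.60 in Combo (adjusted p = 4.33e-16). Combo stayed above WT by 1.87-fold (adjusted p = 1.26e-20).

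In ATMs, *Gab2* was at 1844, 1574 and 1213 in WT, 2812, 2360.1 and 3101 in Vehicle, 2767, 2888 and 2576 in GLP1R, 1581, 1336 and 2289.6 in IL17A and 1650.0, 2067 and 1224 in Combo. It rose in Vehicle over WT (log2 fold change 0.84, standard error 0.21, adjusted p = 0.00315) and was lower than Vehicle in IL17A (-0.67, adjusted p = 0.0125) and Combo (-0.74, adjusted p = 0.00815). GLP1R overlapped Vehicle, with a difference of -0.01 (95% interval -0.45 to 0.44). The IL17A difference was lost without IL17A replicate 2, at -0.50 (adjusted p = 0.0671). With the Vehicle libraries left out, GLP1R was above WT by 0.82 (adjusted p = 0.00619), while IL17A and Combo differed from WT by 0.15 (adjusted p = 0.587) and 0.09 (adjusted p = 0.769).

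*Grb2* (chromosome 11, 115644045 to 115708597, minus strand), the adaptor that carries Sos1 to receptors, moved little in BM and was lowest in WT in ATMs. BM levels were 8973 ± 128 in WT, 8213 ± 148 in Vehicle, 7809.6 ± 36.4 in GLP1R, 8928 ± 45.3 in IL17A and 10047 ± 333 in Combo (mean ± SD, n = 3). Vehicle was lower than WT (log2 fold change -0.13, adjusted p = 2.75e-05), and Combo was higher than Vehicle by 0.29 (adjusted p = 3.67e-13). GLP1R was lower than Vehicle (-0.07, adjusted p = 0.0113), which was lost without Vehicle replicate 2 (-0.06, adjusted p = 0.0759), and IL17A was higher by 0.12 (adjusted p = 7.19e-05). In ATMs it was at 2781, 2611 and 2771 in WT, 4725, 4314 and 4936 in Vehicle, 4509, 4273 and 4614 in GLP1R, 5837, 5369 and 5260.5 in IL17A and 4408, 4429 and 4208 in Combo. No WT library reached those of any Ob/Ob group, and IL17A was highest. Vehicle exceeded WT by 1.71-fold (log2 fold change 0.78, standard error 0.0651, adjusted p = 5.07e-08), and IL17A exceeded Vehicle by 1.18-fold (log2 fold change 0.24, standard error 0.0643, adjusted p = 0.00527). Without the Vehicle libraries GLP1R, IL17A and Combo were each above WT, by 0.71 (adjusted p = 2.93e-07), 1.00 (adjusted p = 5.41e-09) and 0.67 (adjusted p = 3.59e-07). Epididymal transcripts were high in the same WT libraries, as given above.

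*Sos1* (chromosome 17, 80393751 to 80480453, minus strand), which loads Ras with GTP, and *Nf1* (chromosome 11, 79339693 to 79581612, plus strand), which acts in the opposite direction, both rose in Vehicle over WT in marrow. *Sos1* was at 714, 644 and 697 in WT, 1406, 1344 and 1194 in Vehicle, 1350.0, 1295 and 1295 in GLP1R, 958, 928 and 983 in IL17A and 913, 893 and 883 in Combo in BM. Its level in Vehicle was 1.92-fold that in WT (log2 fold change 0.94, standard error 0.0583, adjusted p = 6.92e-18). It was lower than Vehicle in IL17A (-0.46, adjusted p = 1.74e-09) and Combo (-0.55, adjusted p = 2.34e-11), whereas GLP1R overlapped Vehicle with a difference of 0.00 (95% interval -0.11 to 0.11). In ATMs its 5 groups lay between 263 and 497 normalized counts and overlapped along the order of means, and no comparison passed, with adjusted p from 0.181 for Combo vs WT to 0.9 for GLP1R vs Vehicle.

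*Nf1* was at 495 ± 45 in WT, 827 ± 66.5 in Vehicle, 706 ± 11.2 in GLP1R, 733 ± 28.2 in IL17A and 792 ± 8.81 in Combo in BM (mean ± SD, n = 3). The level in Vehicle was 1.67-fold that in WT (log2 fold change 0.74, standard error 0.0687, adjusted p = 1.61e-12), and Combo stayed above WT by 1.59-fold (adjusted p = 1.82e-11). Its difference from Vehicle was -0.23 in GLP1R (adjusted p = 0.0022), -0.17 in IL17A (adjusted p = 0.0166) and -0.06 in Combo (adjusted p = 0.388). The IL17A difference was lost without Vehicle replicate 1 (-0.12, adjusted p = 0.124), Vehicle replicate 2 (-0.16, 0.0553) or IL17A replicate 2 (-0.14, 0.0823), and that of Combo passed without Vehicle replicate 3 (-0.17, 0.0299). In ATMs *Nf1* was at 288, 258 and 297 in WT, 474, 581 and 328 in Vehicle, 426, 392 and 381 in GLP1R, 179, 246 and 303 in IL17A and 209, 259 and 483 in Combo. It was lower than Vehicle in IL17A (log2 fold change -0.93, standard error 0.304, adjusted p = 0.0163), a difference lost without Vehicle replicate 2 (-0.72, adjusted p = 0.0736) or IL17A replicate 1 (-0.75, 0.0713). Vehicle lay above WT in all 3 libraries, by 0.71 (adjusted p = 0.0567), which missed the threshold and passed it without Vehicle replicate 3 (0.90, adjusted p = 0.0242), Combo replicate 1 (0.71, 0.0411) or Combo replicate 3 (0.71, 0.0249). It also passed with DESeq2 (adjusted p = 0.039), with at least 10 counts in every library (0.0475) and in a fit of only the groups compared (0.0414). Combo replicate 3 was also the one high library of its group, and without it Combo was below Vehicle (-0.98, adjusted p = 0.0122).

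*Dusp6* (chromosome 10, 99263231 to 99267489, plus strand) encodes a cytoplasmic phosphatase that dephosphorylates ERK and is induced by ERK. In Vehicle it was lower than in WT in marrow and higher than in WT in ATMs, and Combo was lower than Vehicle and than WT in both tissues. In BM it was at 3669.8, 3497 and 3330.1 in WT, 2724, 2722 and 2772 in Vehicle, 2685, 2603 and 2669 in GLP1R, 2881, 3027 and 3022 in IL17A and 1772, 1665 and 1706 in Combo. WT stood above all other groups and Combo below them. Vehicle was below WT (log2 fold change -0.35, standard error 0.0373, adjusted p = 4.1e-11), and Combo was below Vehicle by 1.60-fold (log2 fold change -0.68, standard error 0.0396, adjusted p = 1.11e-18) and below WT by 2.04-fold (log2 fold change -1.03, standard error 0.0387, adjusted p = 3.79e-25). IL17A was slightly above Vehicle (0.12, adjusted p = 0.00439), and the GLP1R difference was -0.05 (95% interval -0.12 to 0.03, adjusted p = 0.268). Without WT replicate 1 the difference between Combo and WT no longer went beyond 1 on the log2 scale.

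In ATMs, *Dusp6* was at 6642, 6846 and 7559 in WT, 9025, 10198 and 8659 in Vehicle, 4871, 3983 and 4649.8 in GLP1R, 4239, 4377 and 4713 in IL17A and 4699.6, 4607 and 4728 in Combo. Vehicle stood above WT, and the 3 treated groups, which overlapped one another, stood below both. Vehicle exceeded WT by 1.32-fold (log2 fold change 0.41, standard error 0.0796, adjusted p = 0.000454). Against Vehicle the level was 2.06-fold lower in GLP1R (log2 fold change -1.05, standard error 0.0805, adjusted p = 2.3e-08), 2.09-fold lower in IL17A (log2 fold change -1.06, standard error 0.0804, adjusted p = 1.59e-08) and 1.99-fold lower in Combo (log2 fold change -0.99, standard error 0.0803, adjusted p = 4.63e-08). The Vehicle libraries are those with low *Adgre1* and high neutrophil markers. Without them the treated groups were below WT, with log2 fold changes of -0.65 (adjusted p = 9.29e-06) in GLP1R, -0.67 (adjusted p = 5.16e-06) in IL17A and -0.59 (adjusted p = 1.63e-05) in Combo.

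**Figure D3:**
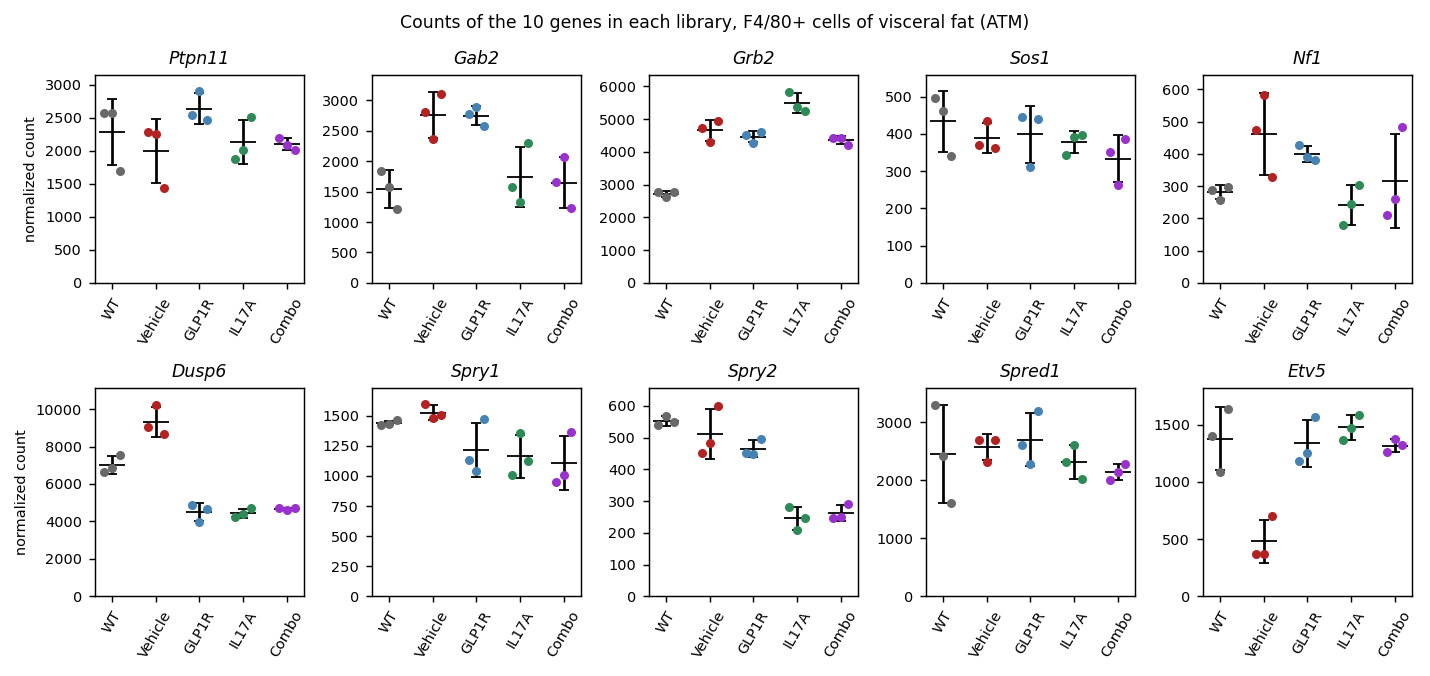
Normalized counts of the 10 genes in each ATM library (points), with the mean and SD of the 3 libraries of a group (black); each axis starts at 0. *Dusp6* is highest in the 3 Vehicle libraries, at 8659 to 10198, *Etv5* is lowest there, at 373 to 700.5, and *Spry2* is lowest in IL17A and Combo.

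The Sprouty genes *Spry1* (chromosome 3, 37639947 to 37644598, plus strand) and *Spry2* (chromosome 14, 105891947 to 105896819, minus strand) and the related *Spred1* (chromosome 2, 117121374 to 117182279, plus strand), whose proteins restrain Ras activation, all rose in Vehicle over WT in marrow and were all lower in Combo than in Vehicle there. *Spred1* was at 652, 529.7 and 484 in WT, 1247, 1144 and 1069 in Vehicle, 1016, 1038 and 1007 in GLP1R, 653, 649 and 661 in IL17A and 524, 556 and 549 in Combo in BM. Vehicle was highest, and Combo and IL17A each overlapped WT. Vehicle exceeded WT by 2.07-fold (log2 fold change 1.05, standard error 0.0723, adjusted p = 9.5e-16), and Combo was 2.13-fold below Vehicle (log2 fold change -1.09, standard error 0.0733, adjusted p = 4.49e-16). IL17A was 1.76-fold below Vehicle (log2 fold change -0.82, standard error 0.0707, adjusted p = 6e-13). GLP1R was below it (-0.18, adjusted p = 0.019), which was lost without Vehicle replicate 1 (-0.12, adjusted p = 0.159) or GLP1R replicate 3 (-0.17, 0.0552). Combo differed from WT by -0.04 (95% interval -0.20 to 0.12, adjusted p = 0.643).

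*Spry2* was at 366, 361 and 334 in WT, 531, 535 and 476 in Vehicle, 397, 466 and 369.9 in GLP1R, 391, 429 and 456 in IL17A and 374, 373 and 372 in Combo in BM. All Vehicle libraries exceeded those of the 4 other groups. Vehicle was above WT by 1.45-fold (log2 fold change 0.54, standard error 0.0866, adjusted p = 6.08e-07), and below Vehicle were GLP1R (-0.32, adjusted p = 0.000978), IL17A (-0.27, adjusted p = 0.00412) and Combo (-0.46, adjusted p = 9.53e-06). Combo and WT differed by 0.08 (95% interval -0.10 to 0.26). *Spry1* was the scarcest of the 10 in BM, at 76.2, 39.7 and 44.1 in WT, 102, 96.6 and 103 in Vehicle, 104, 85.9 and 75.6 in GLP1R, 63.9, 70.1 and 62.6 in IL17A and 44.2, 25.4 and 41.7 in Combo. WT replicate 1 stood apart from the other WT libraries and above all of IL17A and Combo. The rise in Vehicle over WT was 1.86-fold (log2 fold change 0.89, standard error 0.213, adjusted p = 0.000271), IL17A was below Vehicle (-0.62, adjusted p = 0.00768) and Combo was below it (log2 fold change -1.43, standard error 0.229, adjusted p = 5.86e-07). Its difference between Combo and WT, -0.54 (adjusted p = 0.0459), was lost without WT replicate 1 (-0.17, adjusted p = 0.584), Combo replicate 2 (-0.33, 0.253), GLP1R replicate 2 (0.0512) or any IL17A replicate (0.0511 to 0.0523). Of the exon bases of *Spry1*, 24.4% are shared with *Gm42922* on the other strand, and the counting did not use strand; no other of the 10 shares exon bases with an annotated gene.

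In ATMs, *Spry2* was at 538, 568 and 549 in WT, 450.2, 483 and 600.2 in Vehicle, 449.9, 449.8 and 497 in GLP1R, 282, 209.7 and 247 in IL17A and 248, 249 and 290.1 in Combo. IL17A and Combo were below all other libraries, and GLP1R overlapped Vehicle. The level was 2.07-fold below Vehicle in IL17A (log2 fold change -1.05, standard error 0.178, adjusted p = 0.000113) and 1.95-fold below it in Combo (log2 fold change -0.96, standard error 0.178, adjusted p = 0.000317). The GLP1R difference was -0.13 (95% interval -0.51 to 0.24). Without the Vehicle libraries, IL17A and Combo were below WT, with log2 fold changes of -1.18 (adjusted p = 5.44e-05) and -1.08 (adjusted p = 0.000107), and GLP1R differed from WT by -0.25 (adjusted p = 0.242). *Spry1* was at 1441 ± 19.6 in WT, 1528 ± 63.4 in Vehicle, 1216 ± 226 in GLP1R, 1164 ± 179 in IL17A and 1109 ± 225 in Combo in ATMs (mean ± SD, n = 3). It was below Vehicle in Combo (log2 fold change -0.46, standard error 0.157, adjusted p = 0.0236) and, narrowly, in IL17A (-0.39, adjusted p = 0.0424). The Combo difference was lost without Vehicle replicate 1 (-0.43, adjusted p = 0.0625), Combo replicate 1 (-0.36, 0.102) or Combo replicate 2 (-0.40, 0.0859). That of IL17A was lost without any single WT, Vehicle or IL17A library other than IL17A replicate 2 (adjusted p = 0.0522 to 0.156). GLP1R differed from Vehicle by -0.33 (adjusted p = 0.0909), which passed without GLP1R replicate 3 (-0.49, 0.0216). *Spred1* was between 1615 and 3309 normalized counts in all 15 ATM libraries, WT alone covering that whole span, and no comparison passed, with adjusted p from 0.3 for Combo vs Vehicle to 0.783 for Vehicle vs WT.

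*Etv5* (chromosome 16, 22381309 to 22439719, minus strand), an ETS factor of the PEA3 group induced by ERK, differed between Vehicle and WT in opposite directions in the 2 tissues. In BM it was at 296, 264 and 264 in WT, 429.8, 425 and 379 in Vehicle, 345, 336 and 343 in GLP1R, 305, 319 and 314 in IL17A and 244, 249.9 and 222 in Combo. Vehicle was highest and Combo lowest, and no groups overlapped. The rise in Vehicle over WT was 1.5-fold (log2 fold change 0.58, standard error 0.089, adjusted p = 2.35e-07). Against Vehicle it was lower in GLP1R (-0.27, adjusted p = 0.00529), IL17A (-0.40, adjusted p = 0.000103) and Combo, by 1.73-fold (log2 fold change -0.79, standard error 0.0915, adjusted p = 5.52e-10). Combo passed below WT only narrowly (-0.21, adjusted p = 0.0483), and the adjusted p reached 0.0501 to 0.231 when any one of 11 libraries was left out, all but WT replicate 3, Vehicle replicates 2 and 3 and Combo replicate 2. It was also lost with the replicate number as a block (adjusted p = 0.0558).

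In ATMs, *Etv5* was at 1404, 1089 and 1638 in WT, 373, 373 and 700.5 in Vehicle, 1187, 1254 and 1573 in GLP1R, 1369.5, 1476 and 1586 in IL17A and 1264, 1373 and 1319 in Combo. Vehicle was below every other library, and the 4 other groups overlapped along the order of their means. Vehicle was 2.86-fold below WT (log2 fold change -1.52, standard error 0.219, adjusted p = 2.47e-05). Against Vehicle the level was 2.78-fold higher in GLP1R (log2 fold change 1.48, standard error 0.218, adjusted p = 3.48e-05), 3.07-fold higher in IL17A (log2 fold change 1.62, standard error 0.218, adjusted p = 1.24e-05) and 2.74-fold higher in Combo (log2 fold change 1.45, standard error 0.218, adjusted p = 4.58e-05). Without the Vehicle libraries the treated groups differed from WT by -0.05 (adjusted p = 0.817) in GLP1R, 0.09 (adjusted p = 0.663) in IL17A and -0.07 (adjusted p = 0.719) in Combo. In these data *Etv5* was thus low in the same ATM libraries in which *Adgre1* and *Csf1r* were low and neutrophil markers high. Fibroblast and stromal markers were low there too. The 8 of them summed to 203400 to 216300 in Vehicle against 459800 to 827000 in the 4 other groups. Endothelial and erythroid marker sums were highest there. In Combo libraries neutrophil markers were also high, *Adgre1* was at 13110 to 13430 and *Etv5* was at 1264 to 1373. Across the 4 groups other than Vehicle, *Adgre1* ran from 6387 to 29670 and *Etv5* from 1089 to 1638. The part of cell content in these levels was not tested.

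Counted by comparison, the share of the 10 genes that passed was above that of all genes in 4 of the 5 comparisons in BM and below it in 3 of the 5 in ATMs. With most genes of BM passing, these counts say little about the 10 in particular. All 10 passed for Vehicle vs WT in BM, where 76.6% of all genes did, with 8 higher (37.8% of all genes) and 2 lower (38.8%). Both genes called there, *Gab2* and *Spred1*, were higher (19.5% of all genes were called, 9.44% higher). That count of 2 became 1 without WT replicate 3 or Vehicle replicate 1, and 3 without WT replicate 1 or Vehicle replicate 3. For GLP1R vs Vehicle 7 passed (background 72.8%), 1 higher (36.5%) and 6 lower (36.3%), and none was called (background 16.7%). For IL17A vs Vehicle all 10 passed (73%), 3 higher (36.4%) and 7 lower (36.6%), and again none was called (16.1%). For Combo vs Vehicle 9 passed (73.8%), 2 higher (37.9%) and 7 lower (35.8%), and *Spry1* and *Spred1* were called, both lower (17.7% of all genes called, 11.1% lower). For Combo vs WT 8 passed (73.3%), 5 higher (36.1%) and 3 lower (37.2%), and *Dusp6* was called as lower (14.3% of all genes called, 9.93% lower), though not without WT replicate 1. The median log2 fold change of the 10 was 0.66 for Vehicle vs WT and -0.58 for Combo vs Vehicle, against -0.02 and 0.02 over all genes. These comparisons share the Vehicle libraries, so a high Vehicle value enters both with opposite sign.

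In ATMs 4 of the 10 passed for Vehicle vs WT (56.9% of all genes), 3 higher (24.3%) and 1 lower (32.6%), and *Etv5* was called as lower (35.4% of all genes called, 22.9% lower). For GLP1R vs Vehicle 2 passed (53.8%), *Etv5* higher (31.8%) and *Dusp6* lower (22%). Both were called (31.8% of all genes called, 20.8% higher and 10.9% lower), but only 1 of them without Vehicle replicate 2 or GLP1R replicate 2. For IL17A vs Vehicle 7 passed (58.1%), 2 higher (33.1%) and 5 lower (25%). Those called were *Etv5*, higher, and *Dusp6* and *Spry2*, lower (35.5% of all genes called, 22.4% higher and 13.1% lower). With 1 library left out at a time, the number called there ranged from 2 to 4. For Combo vs Vehicle 5 passed (48.7%), 1 higher (25%) and 4 lower (23.7%), and *Etv5* was called as higher (26.4% of all genes called, 14.1% higher). That count of 1 became 3 without Vehicle replicate 1 and 2 without Vehicle replicate 3 or Combo replicate 3. For Combo vs WT 3 passed (41.1%), *Grb2* higher (17.8%) and *Dusp6* and *Spry2* lower (23.2%), and *Spry2* was called (21.6% of all genes called, 14.5% lower). In the fit without the Vehicle libraries 3 of the 10 passed in each of GLP1R, IL17A and Combo vs WT, where 41.2%, 44% and 46.4% of all genes did. In a test of any difference among the 5 groups all 10 passed in BM (background 95.1%). In ATMs 5 did, *Gab2*, *Grb2*, *Dusp6*, *Spry2* and *Etv5* (background 73.5%).

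**Figure D4:**
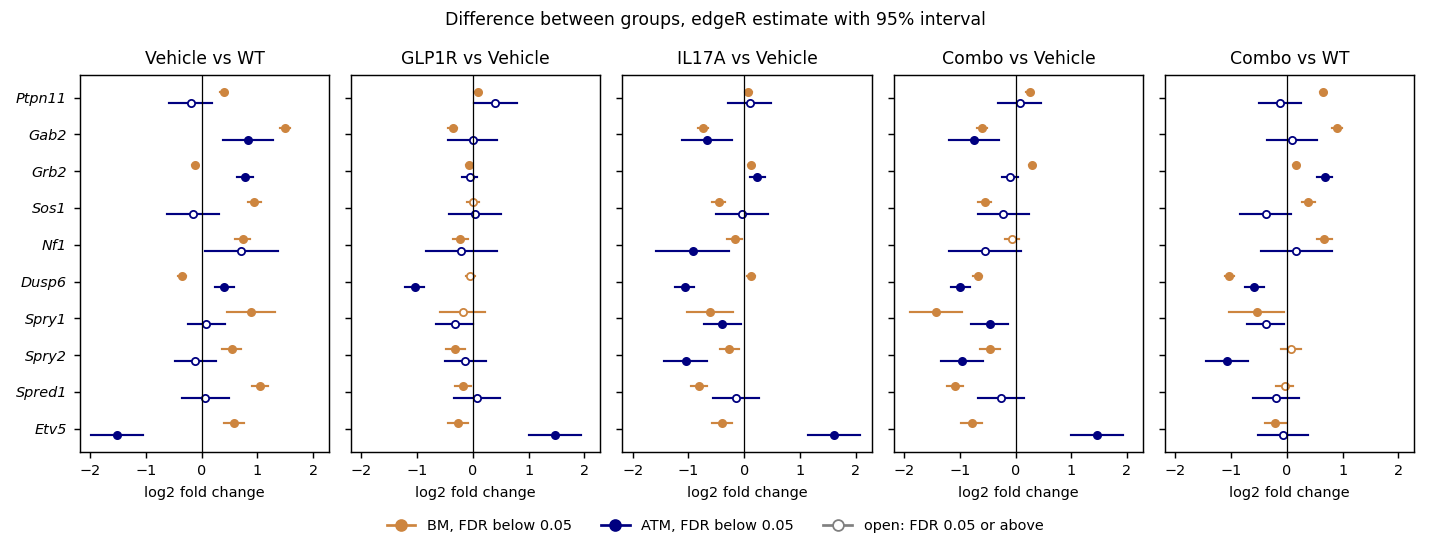
Log2 fold changes of the 10 genes in the 5 comparisons, with 95% intervals, in BM (tan) and ATMs (navy); filled points have an adjusted p below 0.05. For Vehicle vs WT *Etv5* lies at 0.58 in BM and -1.52 in ATMs, and *Dusp6* at -0.35 and 0.41.

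The difference between Vehicle and WT itself differed between the tissues for 9 of the 10 genes, by an interaction test. It used 1 fit of the 30 libraries over the 13076 genes in both tables, in which 56% of all genes passed. The fit gave each gene 1 spread across both tissues, though replicates varied far less in BM. It also took BM and ATM libraries as independent, and whether they shared mice was not tested. With a variance per tissue (limma's voom), 9 passed for Vehicle vs WT and 5 for Combo vs Vehicle. The difference (ATM minus BM, log2) between the Vehicle to WT effects was -2.10 (standard error 0.243, adjusted p = 4.08e-08) for *Etv5*, -1.10 (standard error 0.203, adjusted p = 5.05e-05) for *Sos1* and -0.98 (standard error 0.231, adjusted p = 0.000746) for *Spred1*. In the other direction it was 0.91 (standard error 0.0663, adjusted p = 6.07e-12) for *Grb2* and 0.76 (standard error 0.091, adjusted p = 6.81e-08) for *Dusp6*. For *Etv5*, *Grb2* and *Dusp6* the effect passed the test in each tissue with opposite signs. *Nf1* alone did not pass, at -0.02 (standard error 0.304, adjusted p = 0.957). For Combo vs Vehicle 6 of the 10 differed between tissues (background 55.1%). *Etv5* had the largest difference there too, at 2.28 (standard error 0.244, adjusted p = 1.02e-08), and the Combo effects on *Spry1* and *Spred1* were less negative in ATMs than in BM, by 1.01 (standard error 0.288, adjusted p = 0.00423) and 0.87 (standard error 0.231, adjusted p = 0.00237). For *Ptpn11* the Combo effect was not shown to differ, at -0.14 (standard error 0.188, adjusted p = 0.545).

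The rest of the pathway was read from 80 genes in 7 lists, of which 77 were tested in BM and 78 in ATMs. List names are broad. Being listed does not show that a gene acts as an ERK feedback inhibitor or is an ERK target in these cells. In BM 63 of 77 passed for Vehicle vs WT, where 76.6% of all genes passed. Of the 77, 30 were higher (37.8% of all genes) and 33 lower (38.8%). For Combo vs Vehicle 60 passed (73.8%), 30 higher (37.9%) and 30 lower (35.8%). Upstream adaptors and phosphatases (15 tested) split evenly for Vehicle vs WT, 5 higher and 5 lower. Among them *Cblb*, a ubiquitin ligase, rose by 0.91 and *Grap*, a relative of *Grb2* found in lymphocytes, fell by 0.94 on the log2 scale. *Sos2*, the other Sos gene, rose in Combo over Vehicle by 0.74 (2119.8 to 2257 normalized counts in Vehicle, 3549.5 to 3697 in Combo), where *Sos1* fell. Of 6 Ras GTPases 2 rose in Vehicle over WT, *Hras* most (0.25), and 4 fell, *Mras* most (-1.83). All 5 exchange factors tested fell (38.8% of all genes did). Among them *Rasgrp1*, used by lymphocytes, fell by 0.90 and *Rasgrp2*, used by platelets, by 0.86 on the log2 scale. B cell markers were lower in Vehicle than in WT in the same libraries, as given above.

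Of 9 Ras GTPase-activating proteins in BM, 4 rose (37.8% of all genes) and 4 fell (38.8%) for Vehicle vs WT. *Rasa4*, activated by calcium, rose by 2.00 in Vehicle over WT and fell by 2.54 in Combo against Vehicle on the log2 scale. Its libraries were at 659, 795 and 761 in WT, 2846, 3013 and 2970.3 in Vehicle and 529.8, 495 and 498 in Combo. Of 15 Raf, MEK and ERK kinases and scaffolds, 11 rose and 1 fell in Combo against Vehicle (37.9% of all genes rose and 35.8% fell), led by the ribosomal S6 kinase genes *Rps6ka2* (0.98) and *Rps6ka3* (0.98). Of 11 other feedback inhibitors, 8 fell and 1 rose for Combo vs Vehicle, with a median of -1.15 (0.02 over all genes). Among those averaging 50 or more counts, the ERK phosphatase genes *Dusp2* (-1.85) and *Dusp5* (-1.82) fell most, and *Spred2* rose by 0.17. Of the scarcer ones, *Spred3* had a mean of 81.6 in Vehicle and 7.99 in Combo, and *Dusp4* had means of 59.3 and 11.5. Cell markers moved in the same comparison. In Combo against Vehicle 9 of 13 monocyte and macrophage markers fell (median log2 fold change -1.43), as did 7 of 7 T cell markers (-1.07) and 9 of 10 B cell markers (-1.46), and 7 of 11 neutrophil markers rose (1.06). Their part in these counts was not tested. For Vehicle vs WT 4 of the 11 other feedback inhibitors rose (37.8% of all genes) and 2 fell (38.8%). Among those averaging 50 or more counts, the ETS repressor gene *Erf* (1.18) and *Spred2* (0.88) rose most. The scarcer *Spred3* had a mean of 11.4 in WT and 81.6 in Vehicle. Of 16 other ERK targets, the immediate early gene *Egr1* was 4389, 4136 and 4221 in WT, 1400.5, 1470.1 and 1365 in Vehicle and 6012, 6078 and 6027 in Combo, with log2 fold changes of -1.59 for Vehicle vs WT and 2.10 for Combo vs Vehicle. The cyclin gene *Ccnd1* went the other way, 1.04 for Vehicle vs WT and -2.08 for Combo vs Vehicle.

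In ATMs 51 of the 78 pathway genes passed for Vehicle vs WT (background 56.9%), 32 higher (24.3%) and 19 lower (32.6%). For Combo vs Vehicle 54 passed (48.7%), 21 higher (25%) and 33 lower (23.7%). Of the 12 other feedback inhibitors 7 rose and none fell for Vehicle vs WT, with a median of 0.85, where the median of all genes was -0.21. *Spry4*, a Sprouty gene outside the 10, was at 1599, 1451 and 1293 in WT, 7229.6, 8605 and 7219 in Vehicle, 1518, 1246 and 1128 in GLP1R, 767, 652 and 939 in IL17A and 641, 698 and 558 in Combo. It rose by 2.41 in Vehicle over WT and fell by 3.60 in Combo against Vehicle on the log2 scale. Of 17 other ERK targets 12 fell and 2 rose for Combo vs Vehicle. *Fosl1*, an AP-1 subunit, had 295, 410.3 and 419 in WT, 2368, 2332 and 2378 in Vehicle and 223, 213 and 194 in Combo, and *Epha2*, a receptor tyrosine kinase gene, fell by 2.52. *Etv1*, of the same group of ETS factors as *Etv5*, was likewise lower in Vehicle than in WT (-3.65, adjusted p = 0.00451) and higher in Combo (2.69, adjusted p = 0.0269). *Rasa1*, which encodes p120 RasGAP, had log2 fold changes of -1.14 for Vehicle vs WT and 2.24 for Combo vs Vehicle. Of 5 exchange factors 4 rose and none fell for Combo vs Vehicle (25% of all genes rose). All 7 T cell markers tested rose in the same comparison (median log2 fold change 2.91), and endothelial markers, at 54850 to 60080 in Vehicle against 16800 to 20980 in the 4 other groups, moved with these comparisons too.

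**Figure D5:**
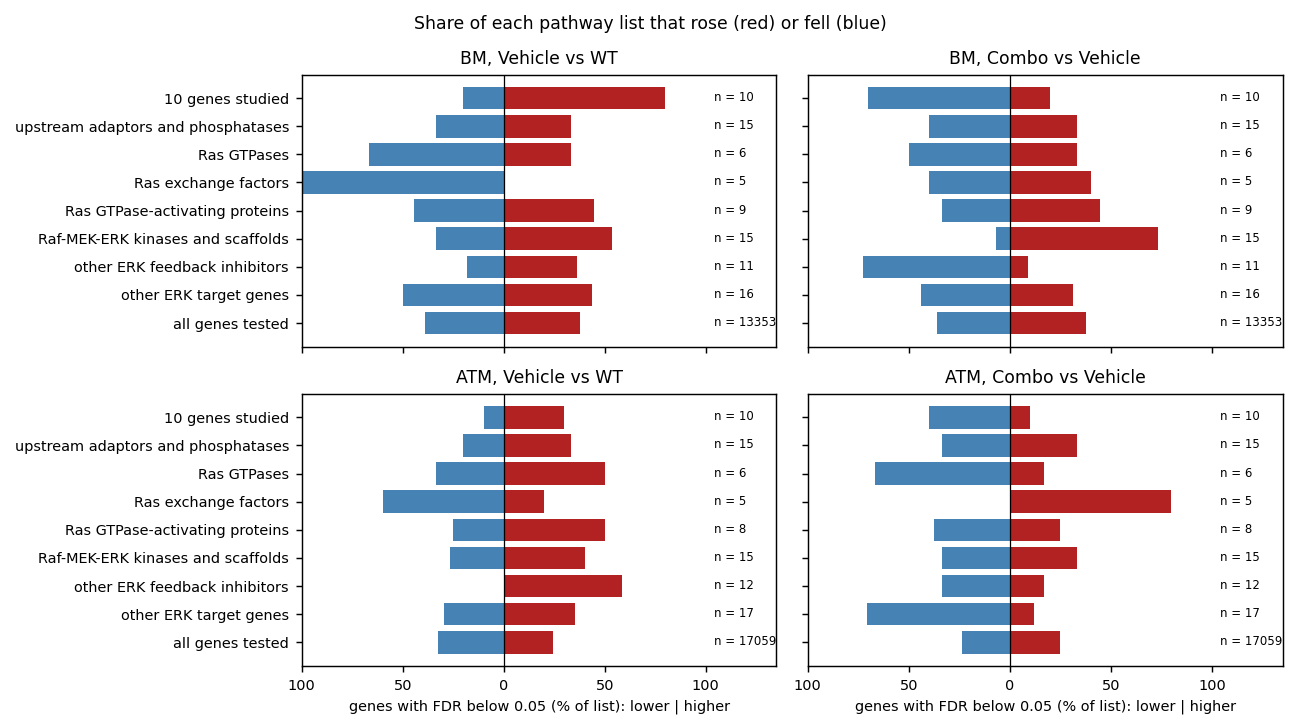
Share of each list with an adjusted p below 0.05, as higher (red, right) and lower (blue, left) in percent of the genes tested (n at the right), for Vehicle vs WT and Combo vs Vehicle in BM and ATMs; the bottom bar of each panel gives all genes tested. In BM 8 of the 10 genes studied are higher for Vehicle vs WT and 7 lower for Combo vs Vehicle, and all 5 exchange factors are lower for Vehicle vs WT.

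Across the 15 BM libraries some of the 10 genes varied together; these correlations are descriptions, since the points share the 5 groups. *Etv5*, *Spred1* and *Spry1* had Pearson correlations of log2 CPM of 0.86 to 0.92 with one another, and *Gab2* and *Sos1* one of 0.91. *Ptpn11* followed *Nf1* (0.83) and ran against *Dusp6* (-0.82). In ATMs the same 3 genes had correlations of -0.45 to 0.38, and *Dusp6* ran with *Spry1* (0.73) and against *Etv5* (-0.76). Among 10238 other genes in BM the patterns most like that of *Ptpn11* were those of *Snrnp200* (0.99), *Zbtb7a* (0.99) and *Prpf8* (0.99), and most like that of *Dusp6* those of *Klrb1c* (0.98), *Ckb* (0.97) and *Chd3* (0.97). In ATMs, among 12200, the nearest to *Ptpn11* were *Arid2* (0.81), *Heatr1* (0.78) and *Atp13a3* (0.78), and the nearest to *Dusp6* were *Tmem45a* (0.98), *Galnt18* (0.98) and *A4galt* (0.97).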

How the data were processed

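RNA was measured in 30 libraries, 15 of whole BM cells and 15 of F4/80+ cells from visceral fat. The authors deposited raw read counts per gene in 2 tables, made with STAR 2.7.2a on mm10 (GRCm38) and featureCounts 2.0.1 without strand, with a mapping quality of at least 10, counting a read for every gene it overlaps. Their differential tests and plots were not used here, and no column of per-sample values was left out. Deposited tables held no gene with a total under 54 counts, and filterByExpr removed none.

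Groups were compared with edgeR 4.0.16 under R 4.3.3 (TMM scaling, robust quasi-likelihood test, 1 fit of 15 libraries per tissue, Benjamini-Hochberg adjustment over all genes of a table). The interaction was fitted in 1 model of 30 libraries. For a normalized count, the count was divided by the TMM-scaled depth of its library and brought back to the mean of that depth over the tissue. DESeq2 1.42.0 and limma 3.58.1 served as alternatives. The steps were tested on simulated data.

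The 10 genes and all lists were chosen with earlier results of these data known. Of each pathway list, at most the 2 genes with the largest rise and the 2 with the largest fall were named among those with an adjusted p below 0.05 and 50 or more counts on average, for Vehicle vs WT and Combo vs Vehicle. *Spry4*, *Rasa4*, *Egr1* and *Fosl1* are among those and are shown by library. Genes most like *Ptpn11* or *Dusp6* had the highest Pearson correlation of log2 CPM (prior count 2) among those averaging 100 counts or more. Same-numbered libraries of different groups within a tissue did not deviate together (correlations of -0.0842 to 0.193 in BM and -0.0511 to 0.0345 in ATMs). No 2 libraries of a group agreed within counting noise. The lowest mean chi-square per gene between 2 libraries of a group was 2.02 in BM and 11.7 in ATMs. This does not show that they came from separate mice. Leaving out the ATM Vehicle libraries was chosen after seeing the data.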

Additional observations from a re-analysis of the deposited data

Results flagged for a closer look

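Effects that differed between ATMs and BM by the interaction test stood out for a closer look. For Vehicle vs WT the ATM effect minus the BM effect (log2) was -0.59 for *Ptpn11*, -0.66 for *Gab2*, 0.91 for *Grb2*, -1.10 for *Sos1*, 0.76 for *Dusp6*, -0.81 for *Spry1*, -0.65 for *Spry2*, -0.98 for *Spred1* and -2.10 for *Etv5*. The differences of *Gab2* and *Spry1* missed the threshold when 1 library was left out, *Gab2* without WT replicate 1 (-0.51, adjusted p = 0.0665) or Vehicle replicate 2 (-0.53, adjusted p = 0.0575) of ATMs and *Spry1* without WT replicate 2 of BM (-0.64, adjusted p = 0.0624).

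For Combo vs Vehicle it was -0.35 for *Grb2*, -0.27 for *Dusp6*, 1.01 for *Spry1*, -0.46 for *Spry2*, 0.87 for *Spred1* and 2.28 for *Etv5*. That of *Spry2* was lost without any one of 7 libraries (adjusted p = 0.0567 to 0.0952), namely Vehicle replicate 3 or any Combo replicate of BM and Vehicle replicate 3, Combo replicate 1 or Combo replicate 2 of ATMs. *Sos1* passed without Combo replicate 2 of ATMs (0.52, adjusted p = 0.0265) and *Nf1* without Combo replicate 3 of ATMs (-0.87, adjusted p = 0.00422). Both sets of differences use the ATM Vehicle libraries with low *Adgre1*, whose part in them was not tested.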

How the results depend on the processing

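The low-count filter removed no gene, so the 132 results recomputed without it were the same. With the replicate number as a block, 153 of 154 kept their side of the threshold, and *Etv5* in BM for Combo vs WT no longer passed (-0.20, adjusted p = 0.0558). Within a tissue, same-numbered libraries of different groups did not deviate together. Whether same-numbered BM and ATM libraries came from the same mouse was not tested. The number of the 10 genes called in ATMs for Combo vs Vehicle was 2 with DESeq2 size factors and 2 with DESeq2, against 1. *Sos1*, near 0 against Vehicle, changed sign: in BM GLP1R it was 0.005 with at least 10 counts in every library, in ATM GLP1R -0.0116 with DESeq2 size factors, -0.0102 with DESeq2 and -0.0187 with only the groups compared, and in ATM IL17A 0.0017 with at least 10 counts. The cause was not tested. The test of *Ptpn11* in BM for IL17A vs Vehicle was no longer passed with DESeq2 (adjusted p = 0.0571) or its size factors (0.0527), nor that of *Etv5* in BM for Combo vs WT with DESeq2 (0.0571) or only the groups compared (0.0834). With only the groups compared, *Spry1* did not pass in BM for Combo vs WT (0.111) or in ATMs for IL17A vs Vehicle (0.0501), the latter also with at least 10 counts in every library (0.0572). In ATMs *Spry1* passed for GLP1R vs Vehicle with DESeq2 (0.0411) and its size factors (0.0499), and *Nf1* for Vehicle vs WT under the 3 settings given beside it. The tissue difference of *Spry2* for Combo vs Vehicle did not pass with voom, which was fitted with a variance per tissue (-0.45, adjusted p = 0.128).

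Leaving out 1 library at a time, the number called ranged from 1 to 3 in BM for Vehicle vs WT and from 0 to 1 in BM for Combo vs WT. In ATMs it ranged from 1 to 3 for Combo vs Vehicle, from 1 to 2 for GLP1R vs Vehicle and from 2 to 4 for IL17A vs Vehicle. Signs changed only for differences that missed the threshold. For the tissue difference the range was -0.2981 to 0.0707 for *Gab2* (Combo vs Vehicle) and -0.1982 to 0.1913 for *Nf1* (Vehicle vs WT). In ATMs it was -0.1193 to 0.183 for *Ptpn11* (Combo vs Vehicle). For Combo vs WT there it was -0.2059 to 0.0817 for *Etv5*, -0.102 to 0.2683 for *Gab2*, -0.264 to 0.3994 for *Nf1* and -0.4146 to 0.0895 for *Spred1*. For GLP1R vs Vehicle it was -0.1151 to 0.08 for *Gab2*, -0.0483 to 0.1892 for *Sos1* and -0.066 to 0.1778 for *Spred1*. For IL17A vs Vehicle it was -0.104 to 0.1983 for *Ptpn11* and -0.0997 to 0.0489 for *Sos1*, and for Vehicle vs WT -0.1577 to 0.3464 for *Spred1*. In BM it was -0.1273 to 0.0963 for *Spred1* (Combo vs WT) and -0.0796 to 0.0478 for *Sos1* (GLP1R vs Vehicle).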
